A study of Mus musculus with 18 samples.

Results

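The genes described here are 10 transcription factors that direct intestinal epithelial cells to secretory or absorptive fates: Atoh1, Spdef, Gfi1, Neurog3, Neurod1, Sox9, Hes1, Klf4, Cdx1 and Cdx2. They were chosen by gene symbol, and each matched 1 of the 27131 rows of a table of RNA levels in mouse colon. In the crypts of the colon, cells that receive a Notch signal switch on Hes1, which represses Atoh1, and go on to absorptive fates. Cells that escape the signal keep Atoh1 and become secretory cells, with Spdef and Klf4 acting in goblet cells and Neurog3 and Neurod1 in enteroendocrine cells. Gfi1 acts below Atoh1 in the choice between secretory types, Sox9 is a factor of crypt base cells, and Cdx1 and Cdx2 maintain intestinal identity.

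Polyadenylated RNA was sequenced from colon tissue of untreated C57BL/6 mice, in 9 libraries labelled Hif2a +/+ (WT) and 9 labelled with an altered Hif2a allele (HIF2), numbered 0 to 8 in each group. The HIF2 mice are described as overexpressing HIF2 in the colon, a factor induced by low oxygen and encoded by Epas1. The allele is written LFL in the sample labels and LSL in the design text, and the sources used here do not give its promoter, any Cre driver, or the age or sex of the mice. The libraries are not said to come from separate mice, so the p-values reflect only how these libraries spread, which may be technical. Levels are FPKM, fragments scaled to transcript length and to library size, so that levels of different genes can be set side by side. The sources used here do not say how library size was set. The read depth is unknown.

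Some libraries stood apart. HIF2 replicates 6 to 8 lay between 50.9 and 58 on the second principal component, which carried 11.2% of the variance, whereas the other 15 libraries lay between -32.6 and 9.2. Epas1 itself was 18.8 ± 3.09 FPKM in WT and 22.7 ± 6.36 FPKM in HIF2 (SD, n = 9 each), a log2 difference of 0.24 that did not pass (limma adjusted p = 0.246), and the sources used here do not say whether its row counts RNA of the altered allele. The HIF-2α target Slc11a2, an iron importer, was at 12.8 to 19 FPKM in WT. The libraries labelled HIF2 replicates 2 and 4 had 16.5 and 18.2 FPKM, inside that range, and the other 7 had 229 to 2101 FPKM. Of 16 HIF target and pathway genes, 9 rose. Relative to WT, the mean log2 level of the 16 was 0.25 and 0.12 in HIF2 replicates 2 and 4. It was 1.19 to 1.97 in the other 7. Defining genes of colon epithelium were high, with Epcam, a pan-epithelial gene, at 905 FPKM and the colonocyte gene Car1 at 6884 FPKM in WT on average. RNA of other cells differed between the groups, while 11% of all genes tested were higher and 11.1% lower in HIF2. Smooth muscle genes rose in 13 of 15 tested, with a summed level of 40.3 to 1121 FPKM in WT and 71.6 to 3356 FPKM in HIF2, fibroblast genes in 13 of 14 (56.5 to 329 and 169 to 1175 FPKM), endothelial genes in 11 of 11 (5.91 to 26.4 and 21.2 to 133 FPKM), enteric neuron and glia genes in 6 of 6 tested (0.77 to 6.39 and 4.91 to 50.8 FPKM) and leukocyte genes in 7 of 11 (29.5 to 81.4 and 54.2 to 524 FPKM). The part of fibroblast, endothelial, neuronal and leukocyte RNA in the results on the fate regulators was not tested. Of 13 epithelial reference genes, 4 fell, Esrp1, Cldn7, Vil1 and Cdh1, and the summed level was 5825 to 8390 FPKM in WT and 5734 to 9596 FPKM in HIF2.

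Of the 10 fate regulators, 8 had a mean of at least 1 FPKM over the 18 libraries and were tested on log2(FPKM + 1), a scale that understates the change of low genes. In HIF2, 6 of these 8 were lower than in WT: Klf4, Sox9, Cdx1, Atoh1, Cdx2 and Spdef (limma, adjusted over all 13976 genes tested at 0.05). Over all genes tested, 1557, or 11.1%, were lower and 1531, or 11%, were higher, 22.1% together. The median log2 difference of the 8 was -0.57, against -0.02 over all genes tested. Gfi1 and Hes1 did not pass, and Neurog3 and Neurod1 were below the filter. In HIF2 replicates 2 and 4, with Slc11a2 inside the WT range, Atoh1, Klf4, Cdx1 and Spdef were below their WT minima. Atoh1 was 16.9 and 21.2 FPKM there. Sox9 and Cdx2 were below theirs in replicate 2 but not in 4. Without these 2 libraries Atoh1 changed by -1.40, Sox9 by -1.13, Klf4 by -0.61, Cdx1 by -0.54 and Cdx2 by -0.66. These passed in limma, and Spdef did not. Whether the falls go with HIF2 activity was not tested. In whole tissue, fewer cells of a type and less RNA per cell cannot be told apart.

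**Figure D1:**
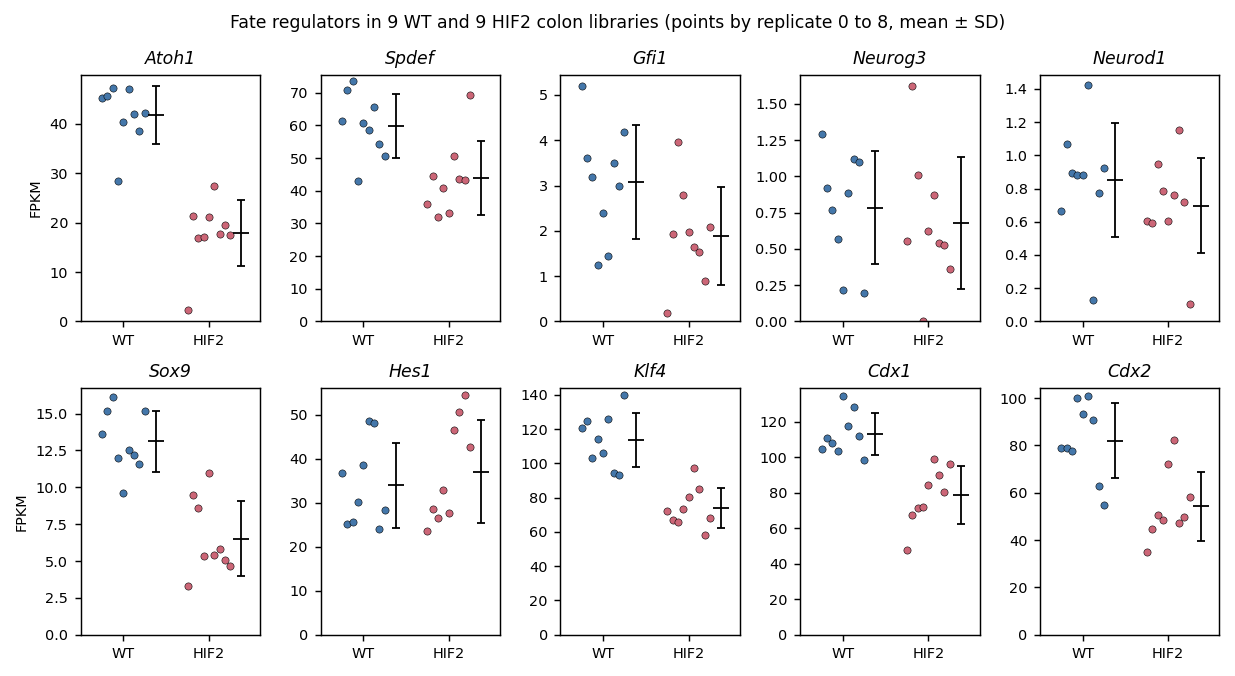
FPKM of the 10 fate regulators in each library, with 1 panel per gene and points for replicates 0 to 8 of each group from left to right, and the mean ± SD beside them. Atoh1 lies between 28.5 and 47.3 FPKM in WT and between 2.37 and 27.5 FPKM in HIF2 with no overlap, whereas Hes1, Gfi1, Neurog3 and Neurod1 overlap broadly.

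Atoh1 (chromosome 6, 64729125 to 64731245, GRCm38), which encodes the basic helix-loop-helix factor that all secretory lineages of the intestine require, showed the largest difference of the 8. Its lowest, median and highest levels were 28.5, 42.1 and 47.3 FPKM in WT and 2.37, 17.7 and 27.5 FPKM in HIF2. Every HIF2 library lay below every WT library, which was so for 1.27% of all genes tested, while the reverse was so for 0.758%. The mean fell from 41.9 ± 5.84 to 17.9 ± 6.71 FPKM (SD over 9 libraries each), to 0.427 of the WT mean and by -1.33 in log2 (SE 0.29, limma adjusted p = 0.00289). The 2-sided exact permutation test gave p = 4.11e-05, the smallest that 9 against 9 can give. HIF2 replicate 0 was lowest by far at 2.37 FPKM, and without it the change was -1.04 (SE 0.11, adjusted p = 7.14e-06).

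The 250 bases before the start site are shown for 4 genes that fell, Atoh1, Klf4, Cdx2 and Spdef. They were searched since the HIF subunits bind DNA at short fixed cores. Entries of RefSeq's promoter table (GRCm38.p6) were used for these 4 and for 7 of the 10 genes in all. Cdx1, which also fell, was left out of this count, so whether it has an entry is not given here. Each stretch reads 5′ to 3′ along its gene, at chr6:64728875-64729124 on the plus strand, chr4:55532476-55532725 on the minus strand, chr5:147307250-147307499 on the minus strand and chr17:27728952-27729201 on the minus strand. Capitals mark, on either strand, the hypoxia response core ACGTG or GCGTG and the E-box CANNTG, the site of basic helix-loop-helix factors. The E-box CACGTG holds ACGTG on both strands.
Atoh1: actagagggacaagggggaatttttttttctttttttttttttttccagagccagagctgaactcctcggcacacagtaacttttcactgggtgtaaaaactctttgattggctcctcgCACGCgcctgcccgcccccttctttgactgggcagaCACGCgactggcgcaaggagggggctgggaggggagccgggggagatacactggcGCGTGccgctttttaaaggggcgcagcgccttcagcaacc
Klf4: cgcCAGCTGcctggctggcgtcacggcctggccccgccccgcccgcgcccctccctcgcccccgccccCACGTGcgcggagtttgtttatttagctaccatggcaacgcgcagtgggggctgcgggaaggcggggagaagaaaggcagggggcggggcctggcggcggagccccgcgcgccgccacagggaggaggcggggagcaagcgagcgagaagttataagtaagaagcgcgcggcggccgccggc
Cdx2: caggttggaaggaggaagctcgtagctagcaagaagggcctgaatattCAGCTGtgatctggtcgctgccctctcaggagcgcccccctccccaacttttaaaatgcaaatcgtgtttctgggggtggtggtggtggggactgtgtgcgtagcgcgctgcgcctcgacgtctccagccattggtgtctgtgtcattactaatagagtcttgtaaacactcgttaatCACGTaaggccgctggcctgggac
Spdef: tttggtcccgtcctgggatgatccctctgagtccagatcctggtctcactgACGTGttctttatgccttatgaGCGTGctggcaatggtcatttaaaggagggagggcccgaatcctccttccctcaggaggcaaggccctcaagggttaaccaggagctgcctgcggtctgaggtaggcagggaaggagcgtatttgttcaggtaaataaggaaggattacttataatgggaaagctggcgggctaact
The Atoh1 stretch holds 3 matches to GCGTG and none to CANNTG. Klf4 holds a single CACGTG and a second E-box, Cdx2 holds 1 ACGTG and 1 E-box, and Spdef holds 1 ACGTG and 1 GCGTG. Among the 32851 promoter entries, 38.6% hold ACGTG or GCGTG in the same 250 bases and 66.2% hold CANNTG, so such matches are common. The sequence GTGGGAA, bound by the Notch effector RBPJ, is in 5.42% of entries and in none of the 7 genes' stretches. These matches describe letters in a window and are not binding sites.

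Of 3 further factors of secretory cells, Spdef and Klf4 fell and Gfi1 did not pass. Spdef (chromosome 17, 27714352 to 27728955), an ETS factor of goblet cell maturation, had lowest, median and highest levels of 42.9, 60.6 and 73.5 FPKM in WT and 31.9, 43.4 and 69.4 FPKM in HIF2. The groups overlapped, with 5 of 9 HIF2 libraries inside the WT range and 8 of 9 below the WT median. The log2 change was -0.46 (SE 0.13, limma adjusted p = 0.0172, exact permutation p = 0.00518). Spdef no longer passed when the smooth muscle mean entered the fit (-0.16, adjusted p = 0.476), after subtraction of the epithelial mean (-0.25, adjusted p = 0.093), without WT replicate 3 and HIF2 replicates 0 to 5, the libraries with most smooth muscle RNA (-0.27, adjusted p = 0.249), without HIF2 replicates 2 and 4 (-0.35, adjusted p = 0.0619), with the replicate number as a block (adjusted p = 0.0526) and in an exact rank test (adjusted p = 0.0515).

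Klf4 (chromosome 4, 55527143 to 55532466), a zinc finger factor of differentiated goblet cells and of the upper crypt, was the highest of the 10 in WT beside Cdx1. Its lowest, median and highest levels were 93.4, 114 and 140.0 FPKM in WT and 58.2, 72.5 and 97.2 FPKM in HIF2. Of the 9 HIF2 libraries, 8 lay below the lowest WT library, and only replicate 5 was inside the WT range. The mean fell from 114 ± 15.6 to 74.2 ± 11.7 FPKM (SD over 9 libraries each), or by -0.61 in log2 (SE 0.10, limma adjusted p = 3.64e-04), the smallest p of the 8. The call held after subtraction of the epithelial mean, at -0.40 (adjusted p = 0.0175).

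Gfi1 (chromosome 5, 107716657 to 107726036), a zinc finger repressor that favours goblet and, in the mouse small intestine, Paneth fates over the enteroendocrine one, was low in both groups. Its lowest, median and highest levels were 1.24, 3.18 and 5.2 FPKM in WT and 0.179, 1.93 and 3.97 FPKM in HIF2, and 7 of 9 HIF2 libraries were inside the WT range. The log2 difference was -0.53 with an SE of 0.24 and did not pass (limma adjusted p = 0.133, exact permutation p = 0.052).

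The enteroendocrine factors were below 1 FPKM on average in both groups. Neurog3 (chromosome 10, 62133090 to 62134763), which starts the enteroendocrine programme, had lowest, median and highest levels of 0.198, 0.887 and 1.29 FPKM in WT and of 0, 0.557 and 1.62 FPKM in HIF2, where replicate 3 was listed at 0. The log2 difference was -0.10 (exact permutation p = 0.566). Neurod1 (chromosome 2, 79452521 to 79456751), which acts after Neurog3, had 0.131, 0.883 and 1.42 FPKM in WT and 0.105, 0.72 and 1.15 FPKM in HIF2, with a log2 difference of -0.12 (exact permutation p = 0.389). For both genes 7 of 9 HIF2 libraries lay below the WT median, and the ranges overlapped almost wholly.

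Of the factors of undifferentiated crypt cells, Sox9 fell and Hes1 did not pass. Sox9 (chromosome 11, 112782224 to 112787760), an HMG box factor of the crypt base that is also made by glia and other stromal cells, had lowest, median and highest levels of 9.6, 12.5 and 16.1 FPKM in WT and 3.29, 5.39 and 11 FPKM in HIF2. All HIF2 libraries but replicate 4 lay below the WT minimum. The mean fell from 13.1 ± 2.1 to 6.51 ± 2.54 FPKM (SD over 9 libraries each), to 0.497 of the WT mean and by -0.97 in log2 (SE 0.17, limma adjusted p = 5.64e-04). HIF2 replicates 1, 2 and 4, at 9.47, 8.58 and 11 FPKM, were higher than the other 6, which lay between 3.29 and 5.79 FPKM.

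Hes1 (chromosome 16, 30064384 to 30067796), the Notch-induced repressor of Atoh1, had lowest, median and highest levels of 24, 30.2 and 48.7 FPKM in WT and 23.7, 32.9 and 54.6 FPKM in HIF2. The groups overlapped almost wholly, and the log2 difference was 0.11 (SE 0.18, limma adjusted p = 0.734, exact permutation p = 0.575). Among the HIF2 libraries, replicates 5 to 8 were high, between 42.8 and 54.6 FPKM, and replicates 0 to 4 lay between 23.7 and 32.9 FPKM. HIF2 replicates 6 to 8 against 8 WT libraries gave a difference of 0.55 (SE 0.23, adjusted p = 0.123), and the difference was -0.12 without those 3 libraries (adjusted p = 0.681).

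Both caudal homeobox genes fell, by -0.54 and -0.60 in log2. Cdx1 (chromosome 18, 61018862 to 61036199) had lowest, median and highest levels of 98.2, 111 and 135 FPKM in WT and 47.5, 80.4 and 98.9 FPKM in HIF2. The ranges met only at their edges, since HIF2 replicate 5 lay just above the WT minimum and the other 8 lay below it. The mean fell from 113 ± 11.9 to 78.7 ± 16.1 FPKM (SD over 9 libraries each), or by -0.54 in log2 (SE 0.12, limma adjusted p = 0.00288), and Cdx1 did not pass when the smooth muscle mean entered the fit (-0.39, adjusted p = 0.0816). Cdx2 (chromosome 5, 147300805 to 147307270), which in mice is needed to keep the gut epithelium intestinal, had 55, 79 and 101 FPKM in WT and 35.1, 49.6 and 82.2 FPKM in HIF2. Of the HIF2 libraries, 6 lay below the WT minimum, and replicates 4, 5 and 8 were inside the WT range. Its log2 change was -0.60 (SE 0.15, limma adjusted p = 0.00714), a call lost after subtraction of the epithelial mean (-0.40, adjusted p = 0.062).

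A fall of 5 of the 8 fate regulators was also measured in HIF2 replicates 6 to 8, which had little smooth muscle RNA. These 3 libraries stood apart on the second principal component and had the most Slc11a2, at 1525 to 2101 FPKM. Relative to the WT mean, the smooth muscle mean was between 2.56 and 3.60 on the log2 scale in HIF2 replicates 0 to 5 and 2.40 in WT replicate 3, but 0.22, 0.44 and -0.54 in HIF2 replicates 6, 7 and 8, inside the range of -1.03 to 0.49 of the other 8 WT libraries. Other stromal RNA was not matched. The fibroblast means of replicates 6, 7 and 8 were 0.95, 1.18 and 0.39, against at most 0.86 in those 8 WT libraries. Their neuron and glia means were 0.86, 0.98 and 0.15, against at most 0.15, and their leukocyte means 0.83, 0.72 and 0.25, against at most 0.55. In those 3 HIF2 libraries Atoh1 was 17.7, 19.5 and 17.6 FPKM, Sox9 5.79, 5.08 and 4.69 FPKM, and Klf4 85.1, 58.2 and 68.4 FPKM, all below the WT minima. Against the 8 WT libraries Atoh1 changed by -1.21 (SE 0.07, limma adjusted p = 1.13e-06), Sox9 by -1.19 (SE 0.14, adjusted p = 1.69e-04) and Klf4 by -0.68 (SE 0.14, adjusted p = 0.00699). Cdx1 changed by -0.35 (adjusted p = 0.0266) and Cdx2 by -0.60 (adjusted p = 0.0293), and 10.1% of all genes tested were lower in this subset. In WT replicate 3, whose smooth muscle RNA was high, Atoh1, Spdef and Gfi1 were at their WT minima of 28.5, 42.9 and 1.24 FPKM. Klf4 and Hes1 were at their WT medians there, at 114 and 30.2 FPKM, and Cdx2 was higher than in all but 1 of the other WT libraries, 0.31 above the WT mean in log2.

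**Figure D2:**
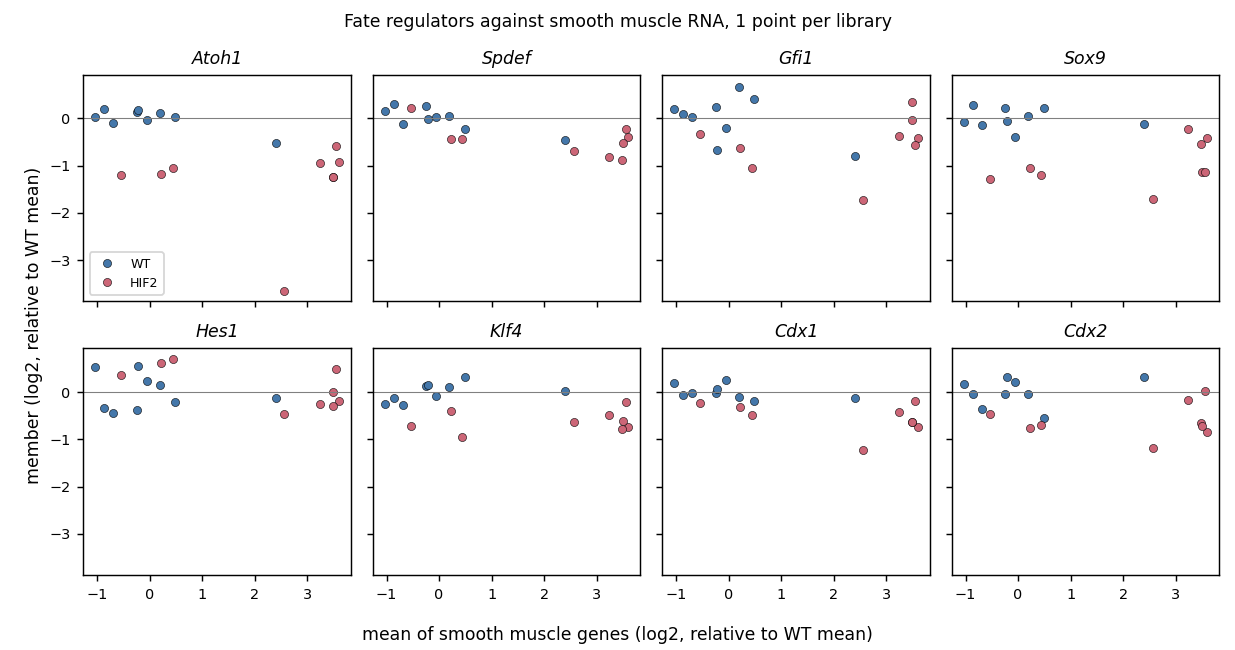
Level of each tested fate regulator against the mean of the smooth muscle genes, 1 point per library, both on the log2 scale relative to the WT mean. The 3 HIF2 points at the left of each panel, between -0.54 and 0.44 on the horizontal axis, lie below the WT points for Atoh1, Sox9 and Klf4.

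Epithelial RNA also differed a little, and a scaling to it changed part of the picture. The mean of the epithelial reference genes was between -0.44 and -0.11 in HIF2 replicates 0 to 5 and between 0.01 and 0.15 in replicates 6 to 8, relative to WT. Subtracting that mean, taken without Elf3, in each library moved the median of all genes from -0.02 to 0.19. It turned the counts over all genes to 3561 higher and 533 lower, or 3.81% lower. Of the 8 fate regulators 4 still fell. On this scale Atoh1 changed by -1.13 (limma adjusted p = 0.0055), Sox9 by -0.76 (adjusted p = 0.00882), Klf4 by -0.40 (adjusted p = 0.0175) and Cdx1 by -0.33 (adjusted p = 0.0108). Hes1 differed by 0.32 (adjusted p = 0.109). With the smooth muscle mean in the fit, 4 of the 8 fell, Atoh1, Sox9, Klf4 and Cdx2, against 7.36% of all genes tested.

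**Figure D3:**
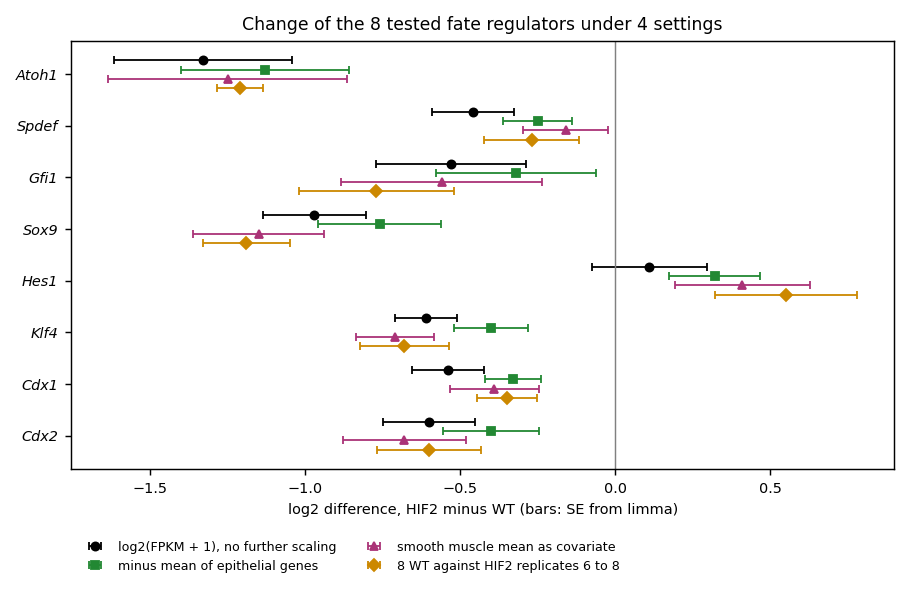
Log2 difference between HIF2 and WT of the 8 tested fate regulators under 4 settings, with limma's SE as bars. All but Hes1 lie left of 0 under the 4 settings drawn, with Atoh1 farthest, and Hes1 lies right of 0 with no adjusted p under 0.05.

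Ratios within a library show that the regulators moved unequally. Ratios are given in FPKM and tested as differences of log2(FPKM + 1). The ratio of Atoh1 to Hes1 FPKM had a lowest, median and highest value of 0.872, 1.23 and 1.84 in WT and 0.1, 0.517 and 0.768 in HIF2, with no overlap. Its log2 difference was -1.44 (exact permutation p = 4.11e-05, adjusted p = 2.88e-04 over 7 pairs). Atoh1 was above Hes1 in 6 of 9 WT libraries and in 0 of 9 HIF2 libraries. The ratio of Atoh1 to Spdef was 0.641, 0.667 and 0.831 in WT and 0.0658, 0.448 and 0.638 in HIF2, again with no overlap, a log2 difference of -0.87 (exact permutation p = 1.23e-04, adjusted p = 4.32e-04), and -0.61 without HIF2 replicate 0 (exact permutation p = 1.23e-04). Atoh1 thus fell further than Spdef did. Atoh1 against Gfi1 differed by -0.81 (exact permutation p = 0.0051, adjusted p = 0.00893), but with pseudocounts of 0.1 and 0.01 by -0.57 and -0.51 (exact permutation p = 0.0687 and 0.12). Without WT replicate 3 and HIF2 replicates 0 to 5 it differed by -0.44 (exact permutation p = 0.176). The FPKM ratio overlapped between the groups, at 8.7, 12.9 and 32.5 in WT and 4.26, 11.1 and 22 in HIF2.

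Sox9 and Hes1, both expressed in crypt progenitors, also parted. The ratio of Sox9 to Hes1 was 0.248, 0.397 and 0.628 in WT and 0.093, 0.139 and 0.398 in HIF2 (lowest, median and highest), a log2 difference of -1.07 (exact permutation p = 0.00358, adjusted p = 0.00835). Cdx1 to Cdx2 had a median ratio of 1.40 in WT and 1.48 in HIF2, and their log2 difference of 0.06 did not pass (exact permutation p = 0.567). Cdx1 was above Cdx2 in all 18 libraries. Klf4 against Cdx1 differed by -0.07 (exact permutation p = 0.623) and Neurog3 against Neurod1 by 0.02 (exact permutation p = 0.932).

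**Figure D4:**
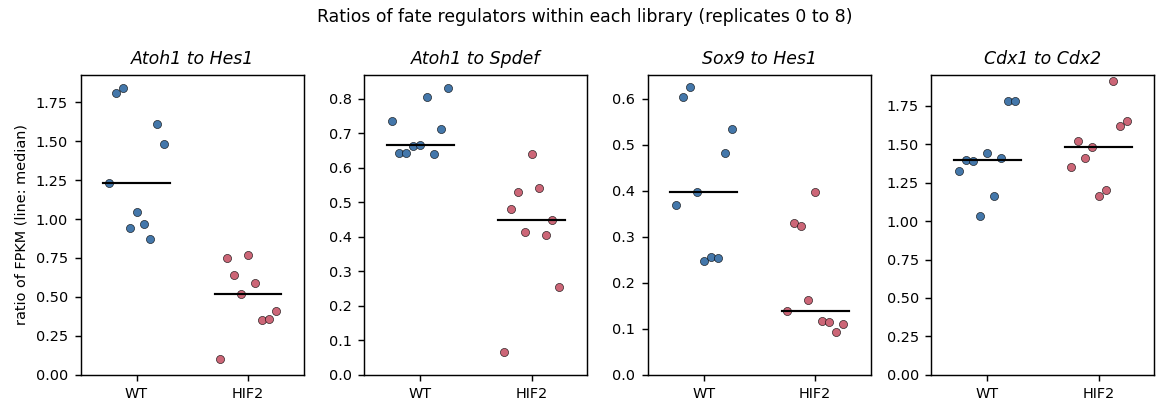
Ratio of FPKM between pairs of fate regulators in each library, with points for replicates 0 to 8 of each group from left to right and a line at the median. The Atoh1 to Hes1 ratio falls from a median of 1.23 to 0.517 without overlap, and the Cdx1 to Cdx2 ratio has medians of 1.40 and 1.48.

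In level, the order in WT from high to low was Klf4, Cdx1, Cdx2, Spdef, Atoh1, Hes1, Sox9, Gfi1, Neurod1 and Neurog3. Klf4 and Cdx1, which stood side by side, could not be ordered, with Klf4 above Cdx1 in 5 of 9 WT libraries and 2 of 9 HIF2 libraries. Cdx2 was above Spdef in 9 of 9 WT and 6 of 9 HIF2 libraries, and Spdef above Atoh1 in 9 of 9 of each. Atoh1 and Hes1 in WT could not be ordered either, with Atoh1 higher in 6 of 9, nor could Neurod1 and Neurog3, at 6 of 9 in WT and 4 of 9 in HIF2. The coefficient of variation of Sox9 was 39.1% in HIF2 and 16% in WT, and 34.6% in HIF2 without replicate 0. That of Atoh1 was 37.5% in HIF2 and 13.9% in WT, but 18% in HIF2 without replicate 0, so most of it rested on that library. No test of these differences was run.

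Within groups, 7 pairs of members gave 14 relations, and none had an adjusted p under 0.05. The closest were Atoh1 with Spdef in WT (Pearson r = 0.82, exact permutation p = 0.00785, adjusted p = 0.0731, Spearman rho = 0.67, exact permutation p = 0.0589, adjusted p = 0.402) and Cdx1 with Cdx2 in HIF2 (r = 0.80, exact permutation p = 0.0104, adjusted p = 0.0731, rho = 0.75, exact permutation p = 0.0255, adjusted p = 0.357). Without the 2 libraries farthest in Atoh1 or Cdx1, r was 0.42 and 0.49. Leaving out the extremes narrows the range and lowers r by itself, so whether either relation rested on those libraries cannot be told. Atoh1 and Hes1 had r = 0.16 in WT (exact permutation p = 0.732, adjusted p = 0.742) and 0.50 in HIF2 (exact permutation p = 0.121, adjusted p = 0.299), with rho of 0.07 (exact permutation p = 0.88, adjusted p = 0.948) and 0.48 (exact permutation p = 0.194, adjusted p = 0.402).

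The genes most alike in pattern were ranked by Pearson r over the 18 libraries after the group means were subtracted, as a description. For Atoh1 they were Ano10 (r = 0.94), Reg4 (0.93), a gene of deep crypt secretory cells, and Akr1c14 (0.93), but without HIF2 replicate 0 these values were 0.49, 0.60 and 0.33. For Spdef they were Glb1 (0.88), Galnt12 (0.86), a mucin-type glycosyltransferase gene, and Minpp1 (0.81), and without HIF2 replicate 0 they were 0.88, 0.86 and 0.82. Cdx1 was most like Rufy1 (0.92), 9130409J20Rik (0.92) and Acadm (0.91), Cdx2 most like Adck5 (0.86), Gas2l1 (0.85) and Wrap53 (0.81), and Sox9 most like Ptprn2 (0.89), 2510009E07Rik (0.88) and Pcca (0.88). Klf4 was most like Trp53inp2 (0.83), Sipa1l3 (0.82) and Tpcn1 (0.82), Hes1 like Sdhaf2 (0.88), Gm3336 (0.86) and Fam58b (0.86), and Gfi1 like 2810021B07Rik (0.87), Ceacam2 (0.87) and Klhdc5 (0.86).

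Genes of the Notch machinery act upstream of Hes1 and Atoh1. Of 18 tested ligands, receptors and modifiers, 1 fell, the ligand gene Dll1 by -0.74 (SE 0.17, limma adjusted p = 0.00398), and 1 rose, the receptor gene Notch2 by 0.98 (SE 0.23, adjusted p = 0.00504), with a list median of -0.10. These shares were not far from the 11.1% and 11% over all genes, and leaving out single libraries gave 1 to 3 lower, above 1 in 6 of 18 fits. Dll1, which secretory progenitors present to their neighbours, had a mean of 4.51 FPKM in WT and 2.41 FPKM in HIF2, and it did not pass after subtraction of the epithelial mean (-0.53, adjusted p = 0.0598). Notch2, which stromal cells also make, went from 2.29 to 5.77 FPKM, and it did not pass with the smooth muscle mean in the fit (0.31, adjusted p = 0.282) or without WT replicate 3 and HIF2 replicates 0 to 5 (0.36, adjusted p = 0.116). The γ-secretase subunit genes Psenen and Aph1a differed by -0.05 and -0.32 and did not pass (adjusted p = 0.773 and 0.114).

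Other HES and HEY genes were mostly below the filter. Of 10 listed Notch target and HES/HEY genes, 3 were tested, Hes2, Hes6 and Nrarp, and not all 3 are Notch targets. None passed in limma or the exact rank test, with 1, Hes6, at an unadjusted p under 0.05. Hes6, a relative of Hes1 that opposes it, was 41.8 FPKM in WT and 28 FPKM in HIF2 (log2 difference -0.67, adjusted p = 0.0583), and it passed without HIF2 replicates 6 to 8 (-0.98, adjusted p = 0.0075). Nrarp, a feedback inhibitor of Notch, was 8.56 and 7.08 FPKM (-0.24, adjusted p = 0.314).

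Most genes listed for goblet cell maturation, which are not all transcription factors, also fell. Of 10 tested genes on this list of goblet cell maturation factors, 7 fell, against 11.1% of all genes tested. The list median was -0.59. Ern2, the secretory cell form of the stress sensor IRE1, fell from 43.8 to 25.8 FPKM (log2 -0.78, SE 0.14, limma adjusted p = 7.24e-04), and Tox3 from 7.08 to 3.84 FPKM (-0.79, adjusted p = 0.00153). Hgfac changed by -0.54 (adjusted p = 0.0164), but by -0.14 with the smooth muscle mean in the fit (adjusted p = 0.56). Galnt12 and Creb3l4 differed by 0.22 and -0.65 without passing (adjusted p = 0.257 and 0.0657), though Galnt12 was higher after subtraction of the epithelial mean (0.42, adjusted p = 0.00238). After subtraction of the epithelial mean 3 of the 10 fell and 1 rose. On that scale 533 of all 13976 genes tested were lower and 3561 higher, with a median of 0.19.

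The products of the lineages did not follow a single direction. Of 9 tested goblet cell products, 3 fell, the mucus protein gene Fcgbp by -0.98, the secreted Retnlb by -1.90 and the granule gene Sytl2 by -0.27, and 1 rose, Spink4 by 0.71 (limma adjusted p = 0.0054, 0.00811, 0.0369 and 0.0156). Over all genes tested 11.1% were lower and 11% higher, and 1 higher of 9 was near that share. Fcgbp did not pass with the smooth muscle mean in the fit (-0.68, adjusted p = 0.128), Spink4 without HIF2 replicates 6 to 8 (0.60, adjusted p = 0.0751), and Sytl2 after subtraction of the epithelial mean (-0.07, adjusted p = 0.71) or in 9 of the 18 fits that leave out a library. The abundant goblet genes Zg16 and Tff3 differed by -0.71 and 0.31 and did not pass (adjusted p = 0.0783 and 0.451), but both passed without WT replicate 3 and HIF2 replicates 0 to 5, Zg16 lower and Tff3 higher (-1.24 and 0.75, adjusted p = 9.87e-04 and 0.0131).

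Of 11 enteroendocrine products, 4 rose and 3 fell, while 11% of all genes tested were higher and 11.1% lower. Scg2, Sst and Scg3, which enteric neurons also make, rose by 1.95, 1.41 and 1.03 (limma adjusted p = 2.01e-04, 7.61e-04 and 0.00211), beside the rise of the 6 tested neuron and glia genes. Tph1, Chga and Chgb, genes of serotonin cells and of endocrine granules, changed by -0.63, -0.69 and -0.56 (adjusted p = 0.019, 0.0232 and 0.0446), and none of these 3 passed with the smooth muscle mean in the fit (adjusted p = 0.263, 0.654 and 0.816), nor did Scg3 (adjusted p = 0.106), and Chgb lost its call in 13 of the 18 fits that leave out a library. The hormone genes Pyy and Insl5 differed by 0.53 and 0.27 (adjusted p = 0.265 and 0.59), but rose by 1.51 and 1.02 without WT replicate 3 and HIF2 replicates 0 to 5 (adjusted p = 2.26e-04 and 0.0048). All 13 further enteroendocrine factors listed were below the filter, with WT means of at most 0.896 FPKM.

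Absorptive and identity factors fell with Cdx1 and Cdx2 in part. Of 15 tested, 7 fell and 1 rose, with a median of -0.30, while 11.1% of all genes tested were lower and 11% higher. Gata6 fell by 0.34 (SE 0.07, limma adjusted p = 0.0021) and Klf5, a factor of crypt progenitors, by 0.56 (SE 0.13, adjusted p = 0.00358). Hnf4a, a nuclear receptor of gut epithelium, was 200.4 and 166 FPKM (-0.30, adjusted p = 0.0631), and Smad4 differed by -0.13 (adjusted p = 0.442). Klf5 and Prdm1, which rose by 0.52 (adjusted p = 0.0232), did not pass with the smooth muscle mean in the fit (adjusted p = 0.144 and 0.494). After subtraction of the epithelial mean the list held 2 lower and 3 higher, and Gata6 did not pass (adjusted p = 0.317). On that scale 533 of all 13976 genes tested were lower and 3561 higher, so higher calls were common. Of 12 absorptive products 6 fell, against 11.1% of all genes tested. The smallest p were those of the butyrate transporter gene Slc5a8, the carbonic anhydrase gene Car4 and the fatty acid binding gene Fabp2, which changed by -1.49, -1.69 and -1.45 (adjusted p = 9.91e-04, 0.00117 and 0.00335). The largest change was that of Slc26a3, a chloride and bicarbonate exchanger gene outside the naming rule, by -1.97 (SE 0.50, adjusted p = 0.00782). Car1 and Aqp8 differed by -0.77 and 0.42 and did not pass (adjusted p = 0.0916 and 0.496), but passed in opposite directions without WT replicate 3 and HIF2 replicates 0 to 5 (-1.85 and 1.57, adjusted p = 6.54e-04 and 3.72e-04).

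Genes of the crypt base, where Sox9 is made, moved both ways. Of 12 tested, 2 rose and 3 fell, but leaving out single libraries gave 1 to 2 higher and 1 to 3 lower. Over all genes tested 11% were higher and 11.1% lower, shares from which such small counts are not far. Nkd1, Smoc2 and Lrig1 lost their calls in 7, 12 and 14 of the 18 such fits, and Lgr5 and Ephb3 in none. The stem cell receptor gene Lgr5 rose from 2.67 to 16 FPKM (log2 1.92, SE 0.37, limma adjusted p = 0.00132), and the Wnt inhibitor gene Nkd1 by 0.89 (adjusted p = 0.0306), which was -0.02 with the smooth muscle mean in the fit. Ephb3, Smoc2 and Lrig1 changed by -0.53, -0.66 and -0.17 (adjusted p = 0.0127, 0.0384 and 0.0441), and none of the 3 passed after subtraction of the epithelial mean, where Lrig1 turned to 0.03 (adjusted p = 0.22, 0.226 and 0.815). Cd44 and Ephb2 differed by -0.03 and 0.06 (adjusted p = 0.949 and 0.81). Of 12 proliferation genes 2 rose, Bub1 by 0.51 and Pcna by 0.52 (adjusted p = 0.0415 and 0.0485), but each lost its call in 12 of the 18 fits that leave out a library, and by exact rank test neither passed (adjusted p = 0.0515 and 0.0765). A share of 2 in 12 was also not far from the 11% higher over all genes tested. Mki67 and Top2a differed by -0.01 and 0.21 (adjusted p = 0.977 and 0.397). Of 4 tested tuft cell genes, a secretory type also dependent on its own factor Pou2f3, 2 fell, against 11.1% of all genes tested. Among them the channel gene Trpm5 fell by 1.10 (adjusted p = 4.47e-04), and Alox5ap and Dclk1 differed by 0.20 and 0.06 (adjusted p = 0.724 and 0.905).

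**Figure D5:**
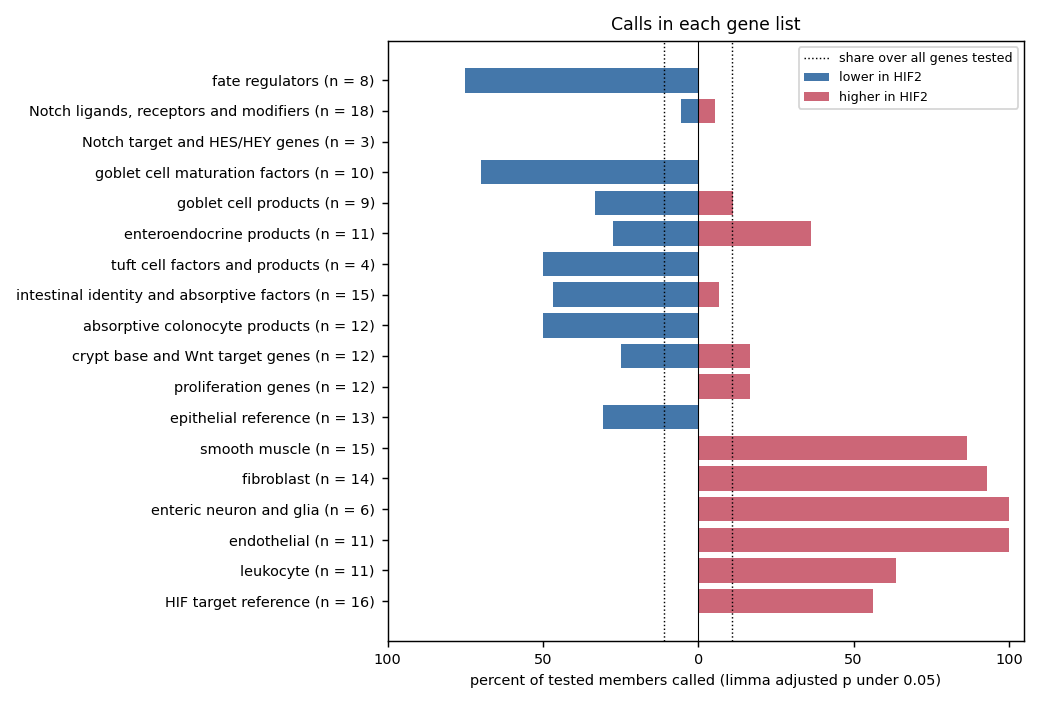
Percent of the tested genes of each list called higher (right) or lower (left) in HIF2 by limma at an adjusted p of 0.05, with the number tested in parentheses and the share over all genes tested as dotted lines at 11.1% lower and 11% higher. The fate regulators and goblet cell maturation factors extend farthest to the left, with 6 of 8 and 7 of 10. Other epithelial lists also pass the line at 11.1% lower. Among them are the absorptive products (6 of 12), identity and absorptive factors (7 of 15), tuft genes (2 of 4) and epithelial reference (4 of 13). The smooth muscle, fibroblast, neuron and endothelial lists extend to the right.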

How the data were processed

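RNA of 9 WT and 9 HIF2 colon libraries was prepared, per the labels' protocols, using Illumina's TruSeq kit v2. The deposited values were FPKM, 1 column per library, and all 18 were used. Cuffdiff 2.1.1, TopHat2 2.0.9, Bowtie2 2.1.0.0, Cufflinks, FastQC and the build mm10 are named in the submitters' processing notes, without roles. The sources used here give no annotation, strand setting or counts, so depth and counting error are unknown, and overlapping genes cannot be told apart. FPKM summed to between 686539 and 937505 per library, and the upper quartile over all rows lay between 8.86 and 9.14. No pair of libraries correlated above 0.931, and each was counted as a sample.

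Values were analysed as log2(FPKM + 1) for genes with a mean of at least 1 FPKM, with limma 3.58.1 in R 4.3.3 (trended prior, 2-sided, Benjamini-Hochberg adjustment at 0.05), tested on simulated data. Single genes were also compared by exact permutation. The 19 gene lists held 247 entries, and 245 had a row. Members, lists and pairs were chosen with earlier results of these data known. From each list up to 3 genes called in each direction, by smallest p, and the 2 highest not called are named, except for the lists of other cell types and HIF targets, and Epas1, Slc11a2 and Epcam were added as checks. Some genes that this rule takes are not reported here. The goblet gene listed as Clca1 was read from its older symbol Clca3, and Adgre1 from Emr1. The ratio comparisons and the fit without HIF2 replicates 2 and 4 were chosen after seeing the data. Alternatives were other pseudocounts, filters and scalings, a replicate block, a smooth muscle covariate, an exact rank test, array weights, a robust prior and libraries left out. Gene coordinates are from GENCODE M21 (GRCm38, the assembly mm10 denotes). Figures used matplotlib 3.10.9.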

Additional observations from a re-analysis of the deposited data

Results flagged for a closer look

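Groups of 9 libraries were screened for a library far from the rest, by the gap to its nearest neighbour over the group's range against Dixon's 95% critical value. Of 166 groups (members, named genes and list means), 19 passed it, 8 through HIF2 replicate 0 and 7 through WT replicate 3, and chance flags about 1 in 20 groups. Among the fate regulators, Atoh1 was low in HIF2 replicate 0, at 2.37 FPKM against 16.9 to 27.5 FPKM in the other 8 (gap 0.580 of the range). Atoh1 was also low in WT replicate 3, at 28.5 FPKM against 38.6 to 47.3 FPKM (0.537). Spdef was high in HIF2 replicate 8, at 69.4 FPKM against 31.9 to 50.7 FPKM (0.499).

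In HIF2 replicate 0, the Notch ligand gene Dll1 was 5.99 FPKM against 1.63 to 2.6 FPKM in the other 8 (0.776). This library also had the highest endothelial mean of the 18, 2.35 relative to WT, and the highest leukocyte sum, 524 FPKM. Which cells made its Dll1 RNA was not tested. In the same library Notch2 (0.539), Alox5ap (0.826), Prdm1 (0.495) and Cd44 (0.544) were high, and the means of the goblet maturation factors (0.622) and goblet products (0.663) were low, at -1.10 and -1.94 relative to WT. In WT replicate 3, Notch2 (0.583), Sst (0.602), Nkd1 (0.700) and the smooth muscle mean (0.557) were high, and the means of goblet maturation factors (0.500) and goblet products (0.582) were low. The remaining values were Retnlb in HIF2 replicate 4, at 282 FPKM (0.563), Lrig1 in WT replicate 6, at 33.3 FPKM (0.566), and a proliferation mean of -0.41 in HIF2 replicate 5 (0.524).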

How the results depend on the processing

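The 6 lower members remained 6 when any 1 library was left out, with Atoh1 between -1.43 and -1.04 in log2. With each library left out, 1333 to 1653 genes were higher in HIF2 and 1343 to 1662 lower. The number of genes higher in HIF2 was 640 with the filter at 5 FPKM, 2433 with the filter at 0.1 FPKM and 2407 with no filter. It was 3561 with epithelial scaling and 962 with the smooth muscle covariate, where the number lower was 533 and 1028. Values reversed for Lrig1 with epithelial scaling (0.03), and for Nkd1 with the smooth muscle covariate (-0.02) and without WT replicate 3 and HIF2 replicates 0 to 5 (-0.06), where Dclk1 turned to -0.91. The cause was not tested. With the replicate number as a block, 1355 genes were higher and 1345 lower, and Spdef lost its call (adjusted p = 0.0526). Same-numbered libraries correlated between -0.03 and 0.11 after the group means were subtracted. No WT library correlated best with the HIF2 library of its own number, so the numbers were not treated as pairs. Neurog3 and Neurod1 averaged under 1 FPKM in both groups, and with the depth unknown a difference in them may not be detectable here.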
